A study of Homo sapiens with 4 samples.

Results

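The genes described here run mitosis, from the cyclin and kinase switch at its start, through the spindle and the kinetochores, to the division of the cell. The list held 50 genes, and its members were all the probe sets whose only gene symbol in the platform annotation was one of them. This gave 106 of the 54613 probe sets tested, and all 50 genes were measured, of 19775 genes in all. Expression was measured with Affymetrix arrays in LN-229, a line established from a human glioblastoma. In 2 induced cultures, doxycycline had switched on WIF1 (WNT inhibitory factor, which is secreted and captures WNT proteins) for 48 h, and 2 control cultures were untreated. The labels call the replicates biological, and doxycycline without WIF1 was not among the samples. A time is given in the titles of the induced cultures only. Whether the inducible line was 1 clone is not given in the sources used here. The comparison asks what induced WIF1 does to the transcripts of these cells, and every difference below is induced minus control on the log2 scale, with n = 2 arrays per group.

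In a dividing cell, cyclin B and CDK1 start mitosis once CDC25 phosphatases have removed the inhibitory phosphates from CDK1. Kinetochores assembled on the centromeres then attach the chromosomes to the spindle, and the spindle checkpoint holds back the anaphase-promoting complex until all are attached. Most of these genes are transcribed late in the cell cycle, when the MuvB core complex with B-MYB and FOXM1 binds the CHR element of their promoters, and in resting cells the DREAM complex represses them through the same element. In cultured cells the summed level of these transcripts depends on how many cells are cycling. An array of a whole culture cannot tell fewer cells in mitosis from less RNA in each of them.

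The arrays were alike in their overall level, with medians of 6.15 in both induced arrays and of 6.16 and 6.19 in the control arrays. The single probe set of WIF1 lay near the floor in all 4 arrays, with 2.93 and 3.03 in the induced and 2.98 and 2.90 in the control arrays, so it could not check the induction. Of the defining markers of glioma cells, VIM, NES, SOX2, S100B, FABP7 and CD44 averaged above 11 on the log2 scale, while GFAP and SOX9 averaged 5.66 and 5.62, below the median of all probe sets (6.16). Of 3 leukocyte markers measured, 1 (CD3E, at 6.72) was at or above that median, and PTPRC averaged 3.79. Of 5 epithelial markers 2 were, KRT18 at 11.6 and KRT8 at 7.68, while EPCAM averaged 3.22. Of 4 endothelial markers 2 were, PECAM1 at 6.91 and VWF at 6.50.

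All 50 mitotic genes were well expressed by this scale. Each gene was represented by its probe set of highest mean, and these means ran from 7.42 for CENPI, an inner kinetochore protein, to 12.67 for UBE2C, the ubiquitin-conjugating enzyme of the anaphase-promoting complex. The median mitotic gene stood at 10.3, against 7.07 for all genes. Differences between the groups were small, from -0.25 for CDC25C to 0.23 for ANLN, with a median of -0.052 (a fold change of 0.964) against -0.003 for all genes. The 10 glioma markers had a like median of -0.050, with 8 lower by sign, and 3 lower and 1 higher at an unadjusted p under 0.05, and what they share with the mitotic genes was not tested. No gene of the list passed the test: limma called 0 of 50 at an adjusted p under 0.05 (0% of all genes), and the smallest adjusted p was 0.472.

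At an unadjusted p under 0.05 by limma, 9 mitotic genes were lower, 18.0% of the list, against 4.73% of all genes. A further 2 were higher, 4.0% of the list, against 6.48% of all genes. Subtracting each array's median raised all differences by 0.025. The split was then 6 lower (12% of the list, against 2.79% of all genes) and 5 higher (10%, against 8.42% of all genes), and the median of the members minus that of all genes stayed at -0.049. Leaving out the first control array left 4 lower (8.0%, against 3.24% of all genes) and 5 higher (10%, against 5.45% of all genes). The lower count was 14 after cyclic loess (28%, against 4.75% of all genes). Without the intensity trend of the model it was 2 (4%, against 3.38% of all genes), a share near that of all genes. By sign alone, 35 genes were lower and 14 higher, and UBE2C differed by 0. Both induced arrays lay below both control arrays in 24 genes, against 22.4% of all genes, and above both in 5, against 21.4% of all genes.

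**Figure D1:**
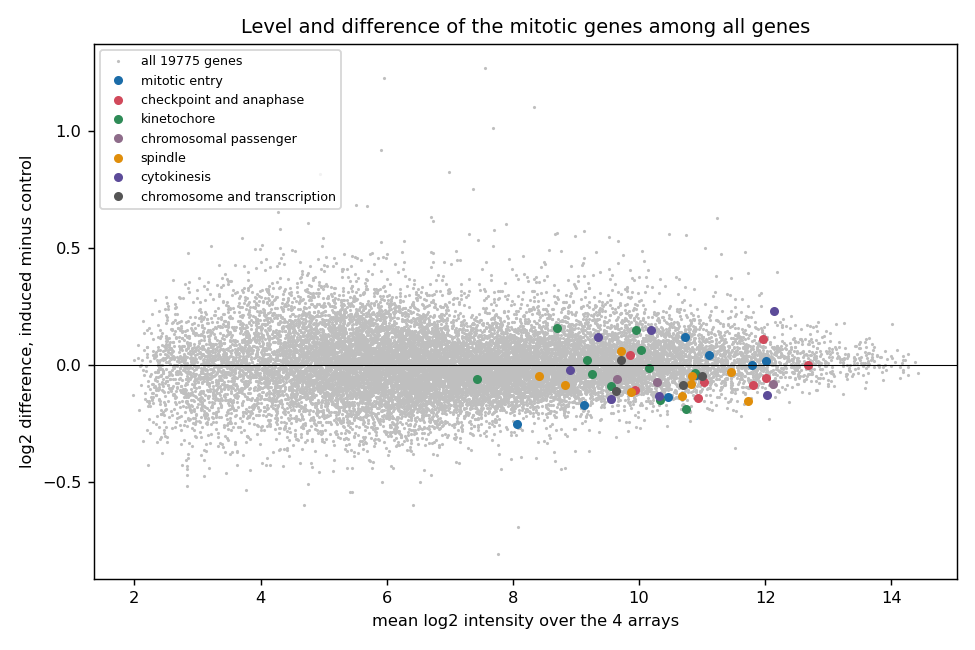
Mean log2 intensity over the 4 arrays (x axis) and log2 difference, induced minus control (y axis), for all 19775 genes in grey and the 50 mitotic genes in colour by role. The mitotic genes lie in the bright part of the array, and their differences stay between -0.25 and 0.23.

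The promoters of 4 genes are shown because these had the most negative and the most positive differences among the members at an unadjusted p under 0.05 whose promoter was given: CDC25C and CENPF lower, ANLN and CCNA2 higher. The sequences are RefSeq windows of the GRCh38.p14 build, 250 bases before and 50 bases after the annotated start, written 5' to 3' on the strand of the gene. Capitals mark every match to TTTGAA, the only form of the CHR element searched, or to CCAAT, the box bound by NF-Y, on either strand. A match on the other strand reads TTCAAA or ATTGG, and the motifs can share at most 1 end base. Of 4 listed windows of CDC25C the one shown has a TTTGAA match upstream of the start.
CDC25C, chr5:138331755-138332054, minus strand: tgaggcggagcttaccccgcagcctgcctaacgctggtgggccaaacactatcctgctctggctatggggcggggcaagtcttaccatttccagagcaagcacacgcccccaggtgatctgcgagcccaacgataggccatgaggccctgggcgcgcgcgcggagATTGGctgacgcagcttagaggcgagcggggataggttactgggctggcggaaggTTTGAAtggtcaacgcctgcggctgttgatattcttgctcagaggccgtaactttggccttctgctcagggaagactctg
CENPF, chr1:214602945-214603244, plus strand: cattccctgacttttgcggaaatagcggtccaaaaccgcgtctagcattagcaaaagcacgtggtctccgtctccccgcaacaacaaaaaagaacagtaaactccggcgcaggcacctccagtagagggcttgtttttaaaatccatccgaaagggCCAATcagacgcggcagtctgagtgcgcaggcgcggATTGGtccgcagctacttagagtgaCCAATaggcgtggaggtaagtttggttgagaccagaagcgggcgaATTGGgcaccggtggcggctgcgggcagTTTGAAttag
ANLN, chr7:36389612-36389911, plus strand: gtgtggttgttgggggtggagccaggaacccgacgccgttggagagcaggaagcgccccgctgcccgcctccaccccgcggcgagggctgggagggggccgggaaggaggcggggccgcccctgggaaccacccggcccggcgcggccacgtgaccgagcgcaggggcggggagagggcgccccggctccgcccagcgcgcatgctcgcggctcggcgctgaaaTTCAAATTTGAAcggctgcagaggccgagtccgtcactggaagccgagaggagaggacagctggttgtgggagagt
CCNA2, chr4:121823834-121824133, minus strand: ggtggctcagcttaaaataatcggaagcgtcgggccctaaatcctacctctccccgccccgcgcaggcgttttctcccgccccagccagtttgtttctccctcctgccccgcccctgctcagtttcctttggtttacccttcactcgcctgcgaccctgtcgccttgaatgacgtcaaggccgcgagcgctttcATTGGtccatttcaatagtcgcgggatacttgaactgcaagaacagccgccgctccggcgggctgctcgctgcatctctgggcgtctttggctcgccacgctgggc
In CENPF the TTTGAA match began at base 41 counted from 1 at the annotated start, with 4 CCAAT matches between 94 bases before the start and base 13. In CDC25C the TTTGAA match began 30 bases before the start and a CCAAT match 85 bases before it. The ANLN window held a pair of TTTGAA matches, one on each strand, that together form a palindrome 26 to 15 bases before the start, and no CCAAT match. The CCNA2 window held 1 CCAAT match and no TTTGAA. It did hold cttgaa, which differs from TTTGAA in the first base only and was neither marked nor counted.

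Windows were given for 42 of the 50 genes (all but AURKA, BIRC5, BUB3, FOXM1, KNL1, TPX2, TTK and UBE2C). A TTTGAA match was found in 63.5% of their 52 windows, against 15.2% of all 35116 windows, and a CCAAT match in 76.9%, against 34.6%. Both occurred in 53.8% of the mitotic windows and in 5.90% of all windows. Of the 46 TTTGAA matches in the mitotic windows, 32 began within 50 bases of the annotated start. This was not counted over all windows, and a match in overlapping windows of the same gene counts more than once. The 30 genes with a TTTGAA match had a median difference of -0.049, with 21 lower by sign, and the 12 without had a median of -0.061, with 9 lower by sign. Only TTTGAA was searched, so genes without it, CCNA2 among them, could still hold a variant of the CHR element. For CCAAT the medians were -0.062 over 35 genes with a match and -0.013 over 7 without.

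Among the 8 genes of mitotic entry the CDC25 phosphatases were lower in both induced arrays, while the B-type cyclins, CDK1 and Aurora A differed by at most 0.04 in either direction on their brightest probe sets. At an unadjusted p under 0.05, 2 were lower and 1 higher, against 4.73% and 6.48% of all genes, and the median of the role was -0.023. CDC25C, which activates CDK1 at the entry into mitosis, had log2 intensities of 8.05 and 7.84 in the induced arrays, against 8.18 and 8.22 in the control arrays. That is a difference of -0.25 (SE 0.083, limma adjusted p = 0.472), a fold change of 0.839. Its groups did not overlap, and the second induced array was the lowest by far. Its other probe sets gave -0.10 (SE 0.12) and -0.06 (SE 0.13) with overlapping groups, and the average of all its probe sets gave -0.14. CDC25B, the phosphatase that acts earlier at the centrosomes, had 10.38 in both induced and 10.51 and 10.54 in the control arrays (difference -0.14, SE 0.038, limma adjusted p = 0.472). The groups were separate there by far more than the replicates of either differed. PLK1, the kinase that drives centrosome maturation, differed by -0.17 (SE 0.098), with 9.20 and 8.89 in the induced arrays against 9.21 and 9.22 in the control arrays, so only the second induced array was clearly low.

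CCNA2, cyclin A2, which acts in S phase and early mitosis, was read in opposite directions by its probe sets. The brighter had 10.77 and 10.80 in the induced arrays, against 10.71 and 10.63 in the control arrays (difference 0.12, SE 0.044, limma adjusted p = 0.481). The other had 10.45 and 10.38 in the induced arrays, against 10.68 and 10.53 in the control arrays (difference -0.19, SE 0.061). Neither pair of groups overlapped, and both probe sets were bright, so no direction can be given for the gene. The B-type cyclins CCNB1 and CCNB2 differed by 0.04 (SE 0.067) and -0.04 (SE 0.045), CDK1 by 0.02 (SE 0.046) and AURKA, the spindle pole kinase, by -0.002 (SE 0.056). For CDK1 and AURKA another bright probe set was lower without overlap, at -0.09 (SE 0.033) and -0.14 (SE 0.039). A further bright probe set of AURKA was higher without overlap, at 0.06 (SE 0.050). Further bright ones of CDK1 gave -0.05 (SE 0.038) without overlap and -0.004 (SE 0.066) with overlap. The other bright probe sets of CCNB1 and CCNB2 were lower without overlap, at -0.06 (SE 0.052) and -0.11 (SE 0.075).

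The 8 genes of the spindle checkpoint and of anaphase had a role median of -0.064. Of these, 1 was lower at an unadjusted p under 0.05 and 0 were higher, against 4.73% and 6.48% of all genes. BUB1B (BUBR1), the checkpoint kinase-like protein that binds CDC20, had 10.85 and 10.89 in the induced arrays, against 11.05 and 10.97 in the control arrays. The difference was -0.14 (SE 0.042, limma adjusted p = 0.472), and both induced arrays lay below both controls. CDC20, the activator of the anaphase-promoting complex, had 11.81 and 11.73 in the induced and 11.86 in both control arrays (difference -0.09, SE 0.037). The checkpoint kinase BUB1 differed by -0.11 (SE 0.048) and PTTG1, securin, by -0.055 (SE 0.030), each with no overlap between groups.

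BUB3, the partner of BUB1 and BUBR1, had 11.98 and 12.06 in the induced arrays, against 11.97 and 11.85 in the control arrays (difference 0.11, SE 0.049, limma adjusted p = 0.511). The induced arrays were higher on that probe set, but its 4 other bright probe sets gave -0.12 to -0.02. MAD2L1 (MAD2), the inhibitor that sequesters CDC20, was split as well: the brightest probe set gave -0.07 (SE 0.048), while its others gave 0.36 (SE 0.13) and 0.20 (SE 0.068). In the probe set at 0.36 the levels were 11.05 and 11.24 in the induced arrays, against 10.99 and 10.59 in the control arrays, so the low second control array made most of that difference. The kinase TTK (MPS1) differed by 0.04 (SE 0.065) and UBE2C by 0.00 (SE 0.028).

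The 11 genes of the centromere and kinetochore pointed both ways, with a role median of -0.037. At an unadjusted p under 0.05, 2 were lower and 0 higher, against 4.73% and 6.48% of all genes. CENPF, a large protein of the outer kinetochore and nuclear matrix, had the smallest p of the whole list, with 10.64 and 10.66 in the induced arrays and 10.82 and 10.85 in the control arrays. Its difference was -0.19 (SE 0.037, unadjusted p = 0.00198, limma adjusted p = 0.472), and each group's arrays lay close together. A dim probe set of the gene gave -0.20 (SE 0.12) and another, at a mean of 7.99, gave -0.01 (SE 0.077). CENPA, the histone H3 variant that marks the centromere, had 10.26 and 10.24 in the induced arrays, against 10.43 and 10.38 in the control arrays (difference -0.15, SE 0.041).

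CENPK, a subunit of the constitutive centromere network, went the other way, with 8.71 and 8.85 in the induced arrays against 8.65 and 8.59 in the control arrays (difference 0.15, SE 0.066, limma adjusted p = 0.503). The 4 subunits of the NDC80 complex, the microtubule-binding arm of the kinetochore, did not move as a unit. NUF2 differed by 0.15 (SE 0.066), NDC80 by 0.06 (SE 0.052), SPC25 by 0.02 (SE 0.055) and SPC24 by -0.09 (SE 0.055). The motor CENPE and the subunits CENPN and CENPI of the inner kinetochore lay between -0.06 and -0.01 on their brightest probe sets. Another bright probe set of CENPN was higher without overlap, at 0.11 (SE 0.046), and a further one gave -0.06 (SE 0.056) with overlap. KNL1, the scaffold that binds BUB1 and BUB3, gave -0.04 on its brightest probe set and -0.28 and -0.33 on its other bright ones.

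On their brightest probe sets, all 3 listed genes of the chromosomal passenger complex were lower in both induced arrays than in both control arrays. The share of all genes that were so was 22.4%. Of the 3 genes 0 reached an unadjusted p under 0.05, against 4.73% lower and 6.48% higher of all genes. AURKB, its kinase, had 9.63 and 9.60 in the induced and 9.69 and 9.66 in the control arrays (difference -0.06, SE 0.044). BIRC5 (survivin) had 12.08 in both induced and 12.20 and 12.12 in the control arrays (difference -0.08, SE 0.037). CDCA8 (borealin) had 10.28 and 10.21 in the induced and 10.34 and 10.30 in the control arrays (difference -0.08, SE 0.045, limma adjusted p = 0.589). Replicate gaps in the same genes were as large, up to 0.07 between the induced arrays for CDCA8 and 0.08 between the control arrays for BIRC5. Another bright probe set of AURKB gave -0.17 (SE 0.12) with overlapping groups. Other bright probe sets of BIRC5 gave -0.08 (SE 0.055) and 0.04 (SE 0.053) with overlap, and -0.20 (SE 0.043) without.

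Of the 9 spindle genes 8 were lower by sign, with a role median of -0.082. With all 4 arrays this was the most negative median of a role. Passenger genes were below the spindle median when the first induced or either control array was left out. Without the first induced array the spindle median was -0.056, and cytokinesis (-0.075) and chromosome and transcription genes (-0.059) were below it too. Without the first control array chromosome and transcription genes were lowest, at -0.052. At an unadjusted p under 0.05, 2 spindle genes were lower and 0 higher, against 4.73% and 6.48% of all genes. TPX2, which activates Aurora A and seeds microtubules around chromosomes, had 11.64 and 11.66 in the induced arrays, against 11.84 and 11.76 in the control arrays (difference -0.15, SE 0.040). ASPM, a protein of the spindle poles, had 10.60 and 10.62 in the induced and 10.78 and 10.72 in the control arrays (difference -0.13, SE 0.040, limma adjusted p = 0.472). On these probe sets the induced replicates differed by at most 0.02, and neither group overlapped the other. Other bright probe sets of ASPM gave -0.43 (SE 0.35) and -0.42 (SE 0.21). Their groups overlapped, and the induced replicates lay 1.16 and 0.71 apart.

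KIF2C (MCAK), a kinesin that takes microtubules apart at centromeres, had 10.80 and 10.76 in the induced arrays, against 10.85 and 10.87 in the control arrays (difference -0.08, SE 0.037). DLGAP5 (HURP), which stabilises kinetochore fibres, had 9.81 and 9.83 in the induced arrays, against 10.01 and 9.87 in the control arrays. Its difference of -0.12 (SE 0.057) was -0.05 without the high first control array. The chromosome-bound kinesin KIF4A differed by -0.09 (SE 0.062). HMMR, KIF18A and NUSAP1 lay between -0.05 and -0.03, with overlapping groups. A second bright probe set gave -0.17 (SE 0.057) for HMMR and -0.21 (SE 0.095) for NUSAP1, both without overlap. The exception by sign was KIF11 (Eg5), the motor that pushes the poles apart, at 0.06 (SE 0.073). Its levels were 9.72 and 9.77 in the induced arrays, against 9.79 and 9.58 in the control arrays, so the control arrays spanned the induced ones.

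Cytokinesis genes pointed both ways, with 3 of 7 lower without overlap between the groups, against 22.4% of all genes, and 1 higher, against 21.4% of all genes. PRC1, which bundles the antiparallel microtubules of the central spindle, had 11.998 and 11.93 in the induced arrays, against 12.10 in both control arrays (difference -0.13, SE 0.035, limma adjusted p = 0.472). KIF20A (MKLP2), the motor that carries the passenger complex to the midzone, had 10.26 and 10.25 in the induced and 10.41 and 10.37 in the control arrays (difference -0.13, SE 0.040). KIF14, which anchors citron kinase at the midbody, differed by -0.15 on both its probe sets (SE 0.062 and 0.059). In all 3 genes both induced arrays lay below both control arrays.

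Differences were positive for ANLN, ECT2 and KIF23 on their brightest probe sets. ANLN (anillin), the scaffold of actin, myosin and septins in the ring, had 12.18 and 12.34 in the induced arrays, against 12.10 and 11.96 in the control arrays (difference 0.23, SE 0.067, limma adjusted p = 0.472). Its other probe set, also bright, gave 0.00 (SE 0.053), so the fold change of 1.17 rested on 1 probe set. ECT2, the exchange factor that switches on RhoA, gave 0.15 (SE 0.10) on the brightest probe set and -0.37 (SE 0.11) on another bright one. On that other probe set ECT2 had 8.74 and 8.41 in the induced arrays, against 9.001 and 8.89 in the control arrays. KIF23 (MKLP1), the centralspindlin motor, differed by 0.12 (SE 0.070) and KIF20B by -0.02 (SE 0.057). Over all 7 genes the median was -0.023, with 2 lower and 1 higher at an unadjusted p under 0.05, against 4.73% and 6.48% of all genes.

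The last role held 4 genes that serve the chromosomes or transcription. None of them reached an unadjusted p under 0.05, against 4.73% lower and 6.48% higher of all genes. FOXM1, the factor that activates many of the genes above, had 9.54 and 9.61 in the induced arrays, against 9.67 and 9.71 in the control arrays (difference -0.11, SE 0.048, limma adjusted p = 0.506). CDCA3, an adaptor in the destruction of WEE1, had 10.68 and 10.65 in the induced and 10.74 and 10.76 in the control arrays (difference -0.09, SE 0.037), and its other probe set gave the same. TOP2A, the topoisomerase that untangles chromosomes, had 10.97 and 10.99 in the induced arrays, against 11.10 and 10.96 in the control arrays (difference -0.05, SE 0.053). Another bright probe set of TOP2A gave 0.04 (SE 0.074). The groups overlapped on the brightest probe set of TOP2A, as they did on that of MKI67, the Ki-67 proliferation antigen, at 0.02 (SE 0.046). The 3 other probe sets of MKI67, all bright, gave -0.12, -0.08 and -0.04.

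**Figure D2:**
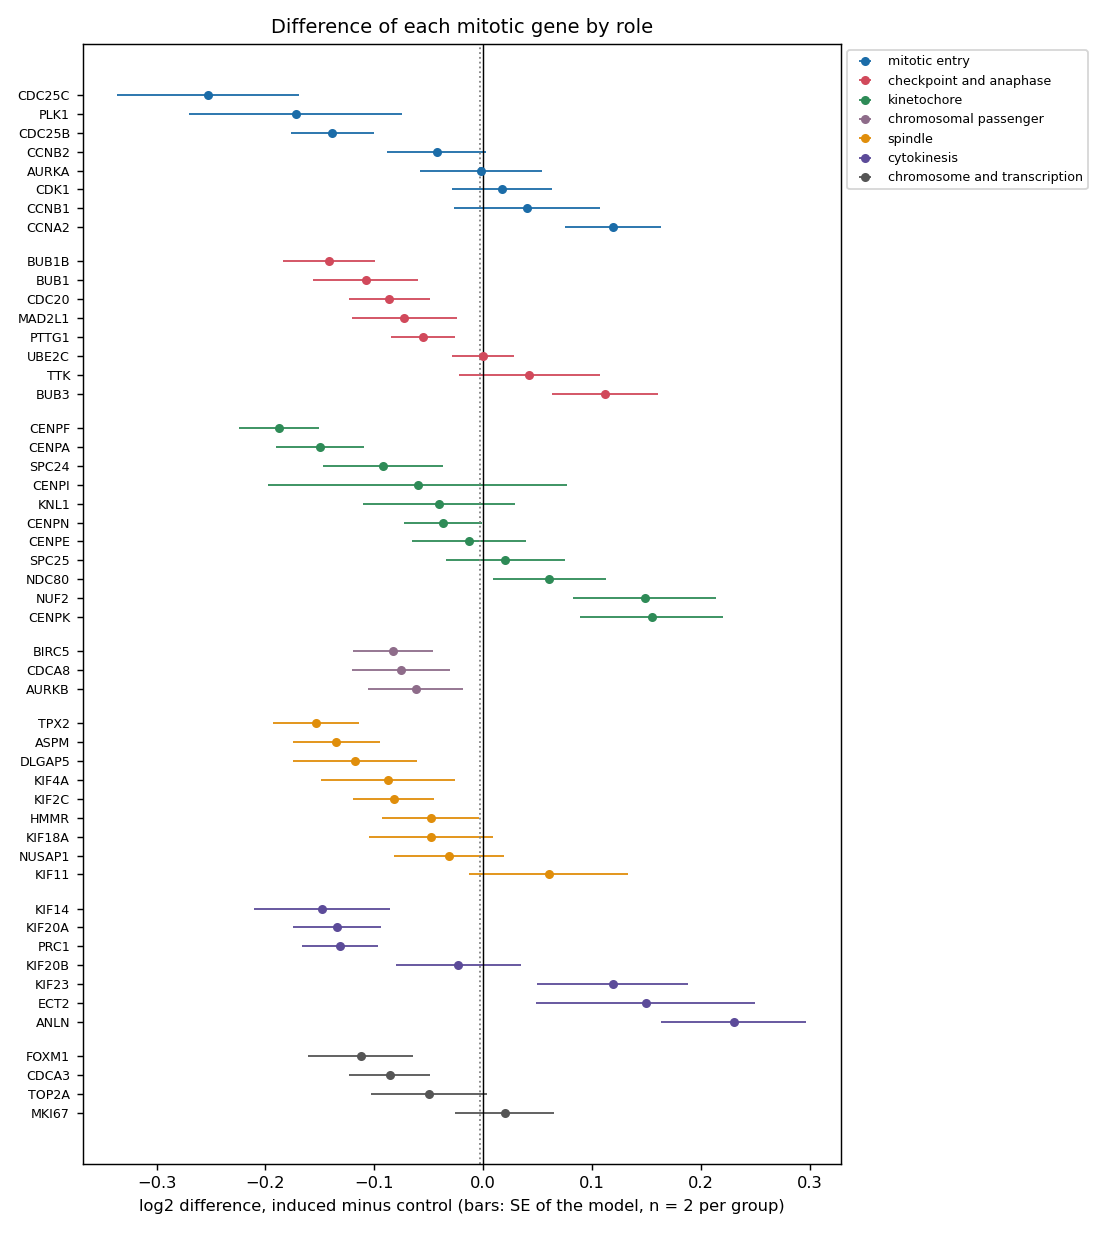
Log2 difference, induced minus control, of the brightest probe set of each of the 50 genes, grouped by role (points) with the SE of the model (bars, n = 2 arrays per group); the dotted line is the median of all genes. Spindle and passenger genes lie left of 0 with the exception of KIF11, while kinetochore and cytokinesis genes lie on both sides.

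The 4 arrays did not contribute equally. Taking each gene's deviation from its own mean over the 4 arrays, the median mitotic gene stood at -0.028 and -0.023 in the induced arrays, and at 0.053 and -0.002 in the control arrays. The first control array thus stood apart from the second by more than the second stood from the induced arrays. It was above the second control array in 38 of 50 mitotic genes (76.0%), against 46.6% of all genes. It was the highest of the 4 arrays in 24 mitotic genes (48.0%, against 18.8% of all genes) and the lowest in 1.

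With the first control array subtracted, the median mitotic gene was at -0.081 in the first and -0.080 in the second induced array. With the second control array subtracted, the medians were -0.022 and -0.028. For all genes these 4 medians lay between -0.011 and 0.007. The induced arrays differed from each other by a median of -0.017 (first minus second) and the control arrays by 0.066. The gap between the control arrays was therefore larger than the median difference between the groups. No date or batch of the arrays is given in the sources used here.

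**Figure D3:**
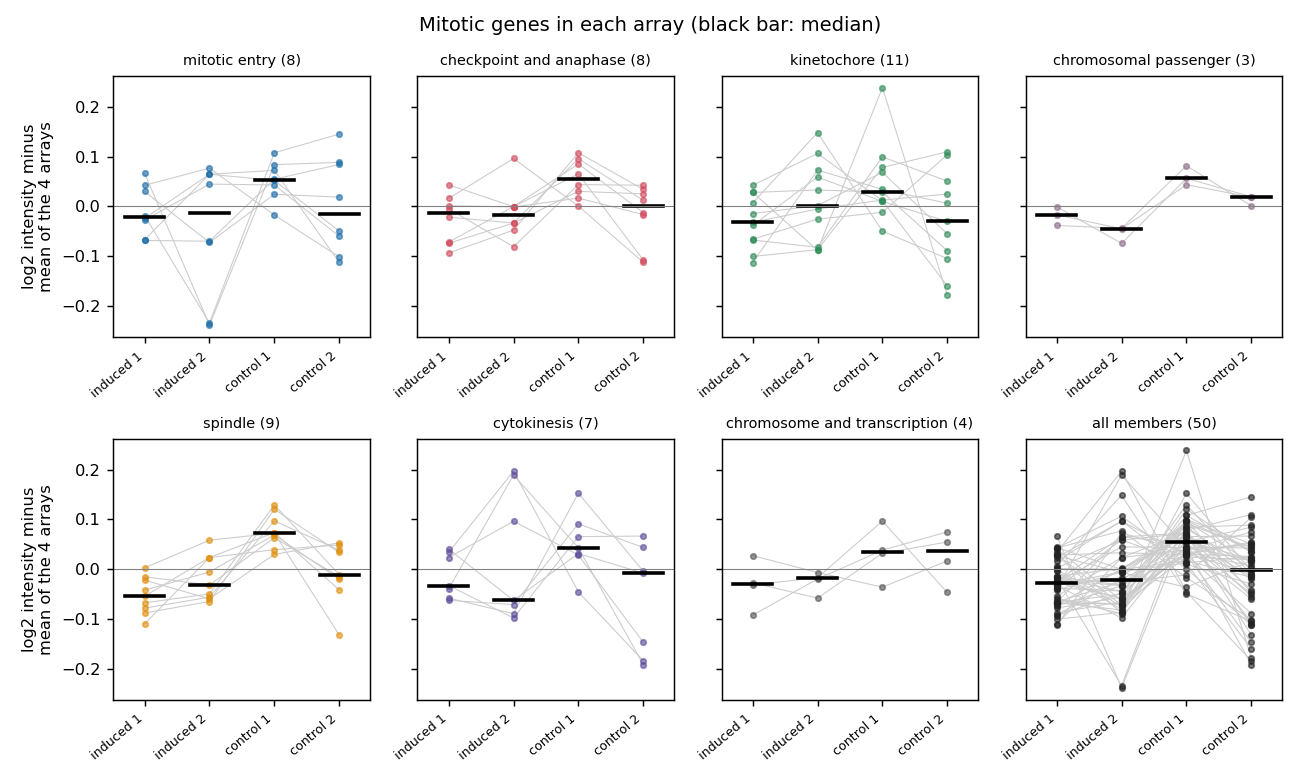
Log2 intensity of each mitotic gene minus its mean over the 4 arrays (y axis) in each array (x axis), by role, with 1 line per gene and a black bar at the median. The first control array has the highest median over all members, 0.053, and the second control array lies at -0.002.

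By role, the first control array was the highest of the 4 in 7 of 8 checkpoint genes, 7 of 9 spindle genes and 3 of 3 passenger genes, but in 3 of 11 kinetochore and 1 of 8 entry genes. Without it the medians of the roles were -0.052 for chromosome and transcription, -0.050 for passenger, -0.048 for spindle and -0.038 for checkpoint genes. They were -0.003 for cytokinesis, 0.004 for entry and 0.041 for kinetochore genes. The kinetochore and entry medians thus changed sign without that array, and the medians of the other roles stayed below 0. With all members the median without it was -0.033, against -0.010 for all genes. Without the second induced array the cytokinesis median was 0.029 in place of -0.023, and without the first it was -0.075.

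Separate groups were also counted with single arrays left out. Without the first control array 24 genes were lower without overlap (48.0%, against 39.5% of all genes) and 16 higher (32.0%, against 34.6% of all genes). Without the second control array the counts were 35 lower (70.0%, against 32.8%) and 6 higher (12%, against 34.5%).

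**Figure D4:**
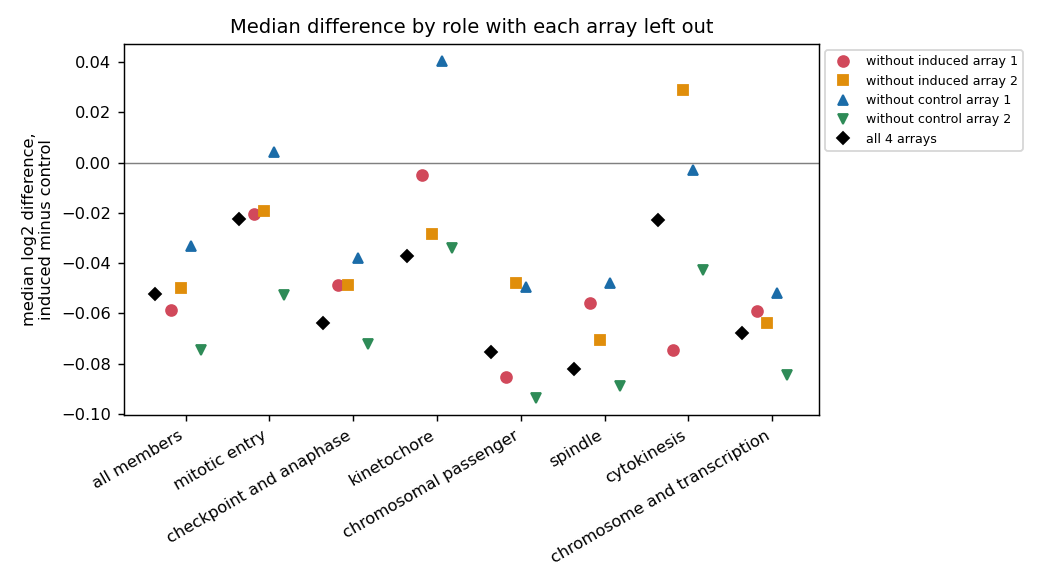
Median log2 difference, induced minus control (y axis), of all members and of each role with all 4 arrays (diamonds) and with each array left out in turn. Without the first control array the medians are -0.033 over all members and 0.041 over the kinetochore genes.

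Of the 50 genes, 28 were read by more than 1 probe set, and in 15 of these all probe sets had the same sign. Over all 106 member probe sets, 20 were lower at an unadjusted p under 0.05, against 5.27% of all probe sets, and 4 higher, against 4.75% of all probe sets. They belonged to 20 and 3 genes, and CCNA2 was the 1 gene in both. At or above the median level of all probe sets stood 92 of the 106, which left 26 genes with more than 1 bright probe set. All bright probe sets had the same sign in 15 of them. In 19 of these 26 the brightest probe set gave a higher difference than the median of the gene's other bright ones. The median over these genes was -0.049 on the brightest and -0.085 on the others. Among single probe sets, one of BIRC5 had 10.73 and 10.68 in the induced arrays, against 10.94 and 10.87 in the control arrays (difference -0.20, SE 0.043, limma adjusted p = 0.472). Where exactly each probe set lies on its transcript was not used here.

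**Figure D5:**
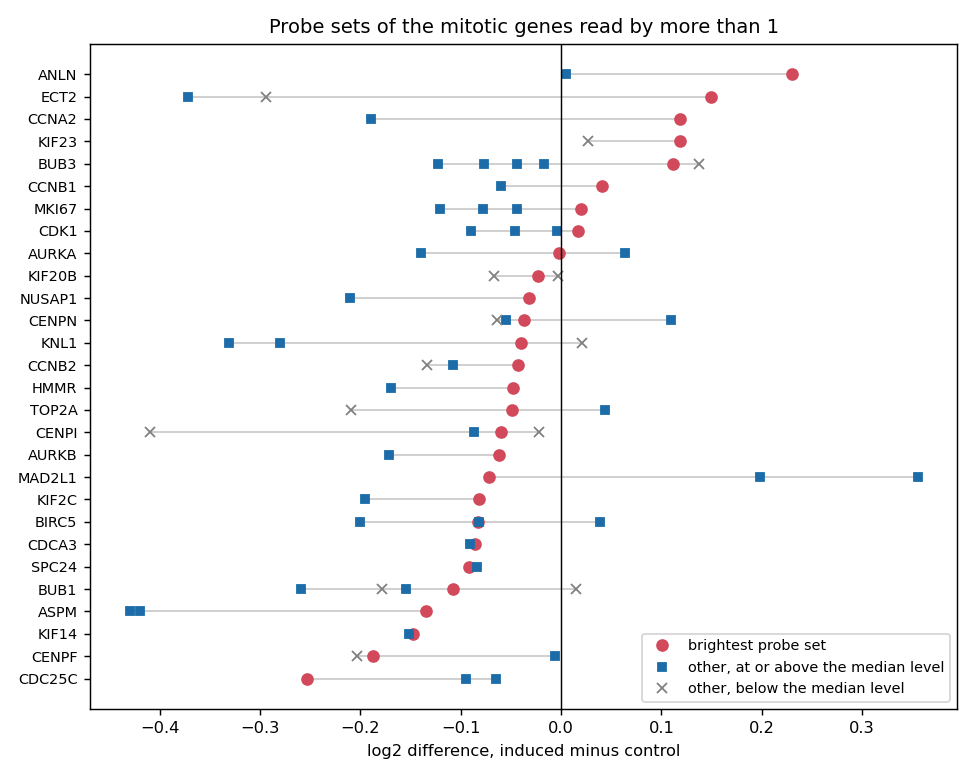
Log2 difference, induced minus control (x axis), of every probe set of the 28 genes read by more than 1, with the brightest in red, other probe sets at or above the median level in blue and dimmer ones as crosses. Of the 26 genes with more than 1 bright probe set, 15 have all of these on the same side of 0. CCNA2, ECT2 and MAD2L1 are among those with bright probe sets on both sides.

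Genes near these in function were counted in the same fit. Of 72 other mitotic genes measured, 13 were lower and 1 higher at an unadjusted p under 0.05, against 4.73% and 6.48% of all genes, and their median was -0.055. BORA, the activator of Aurora A and PLK1, had 9.20 and 9.25 in the induced arrays, against 9.47 and 9.55 in the control arrays (difference -0.29, SE 0.052, limma adjusted p = 0.437). The minus-end kinesin KIFC1 had 9.94 and 9.84 in the induced and 10.14 and 10.04 in the control arrays (difference -0.20, SE 0.055). Both lay outside the range of the control arrays.

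Of 32 DNA replication genes, 5 were lower (15.6%, against 4.73% of all genes) and 2 higher (6.25%, against 6.48% of all genes), with a median of -0.028. PCNA, the sliding clamp of DNA polymerases, had 12.90 in both induced and 12.76 and 12.75 in the control arrays (difference 0.14, SE 0.026, limma adjusted p = 0.444). POLA2, a subunit of the primase complex, had 9.99 and 9.94 in the induced and 10.15 and 10.25 in the control arrays (difference -0.24, SE 0.052). These well-separated genes pointed in opposite directions.

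A list of 17 regulators was built around the DREAM, MMB and NF-Y complexes, and not all of them are subunits. At an unadjusted p under 0.05, 2 were lower and 2 higher, against 4.73% and 6.48% of all genes. Their median was 0.008, with 9 higher by sign. TFDP1, the DNA-binding partner of E2F factors, had 11.46 and 11.49 in the induced and 11.61 and 11.65 in the control arrays (difference -0.16, SE 0.034, limma adjusted p = 0.472). RBBP4, a histone-binding subunit of the MuvB core, had 11.32 and 11.26 in the induced and 11.47 and 11.40 in the control arrays (difference -0.14, SE 0.041). Over the alternatives of processing listed below, the difference of RBBP4 ran from -0.178 to -0.045 and that of TFDP1 from -0.176 to -0.096. The higher ones, chosen after their values were seen, were E2F7, a repressor among the E2F factors, at 0.17 (SE 0.054) and LIN37, a MuvB subunit, at 0.19 (SE 0.066). A TTTGAA match stood in the promoter of 71.4% of the mitotic genes with a window, of 54.1% of the other mitotic genes and of 3.57% of the DNA replication genes, against 18.2% of all genes.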

How the data were processed

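The authors deposited RMA values (log2 intensity of each probe set, computed with affy per the submitters' processing notes, its version not given in the sources used here). RMA equalises the distributions of the arrays, so a change shared by most genes would not be seen. Of 54675 rows, 62 control probe sets were left out. The platform annotation gives 41091 of the other 54613 probe sets 1 symbol, 1801 several and 11721 none, and the RefSeq gene table changed 0 symbols. Each gene was represented by its probe set of highest mean.

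Groups came from the sample titles. The main test was limma 3.58.1 under R 4.3.3 (lmFit, eBayes with trend, 2-sided, 6.27 degrees of freedom), with Benjamini-Hochberg adjustment over all 54613 probe sets and a threshold of 0.05. Standard errors are those of this model. On simulated data with known changes the test was checked. Those changes were all larger than any difference of the mitotic genes, so the check does not cover changes as small as these. With 2 arrays against 2, an exact permutation test could not pass the threshold, and array number limits the precision.

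The members and lists were chosen with earlier results of these data known. Each member has 1 of 7 roles. Genes with values in every array are the 3 of smallest p per role (with a level not below the probe set median), members with an unadjusted p under 0.05 and the 2 extremes (21 genes), and 2 per other list. Other values per array (PLK1, KIF11, DLGAP5, WIF1, single probe sets) were chosen after they were seen. Of 148 listed genes that are no members 143 were measured. Promoter motifs were counted in Python 3.11.15.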

Additional observations from a re-analysis of the deposited data

How the results depend on the processing

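Under the 12 alternatives run (replicate block, cyclic loess, eBayes without trend, robust eBayes, dim probe sets removed, median-centred arrays, averaged probe sets, 1 probe set per gene before the fit, and each array left out), and at an adjusted p under 0.1, limma called 0 of the 50 genes, with smallest adjusted p values from 0.220 to 0.901. The count lower at an unadjusted p under 0.05 (9) was 14 after cyclic loess, 2 without the trend and 4 to 11 with single arrays left out. The count higher (2) was 5 (10%, against 8.42% of all genes) after centring. It was 0 without the trend, against 4.37% of all genes, and 0 with the replicate block, against 4.68%. The replicate block left 9 lower (18%, against 3.47% of all genes). Same-numbered arrays share only a number: the replicate differences of the groups correlated at 0.056 over all probe sets and at -0.223 over the 50 genes. Genes higher without overlap (5) numbered 8 (16%, against 28.1% of all genes) after centring and 6 to 16 (12 to 32%, against 32.9 to 38.3% of all genes) with single arrays left out, alternatives chosen after seeing the data.

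The median of all members stayed below 0 throughout, from -0.075 to -0.033 with single arrays left out. With probe sets averaged it was -0.087, with -0.065 for mitotic entry, -0.029 for checkpoint, -0.131 for cytokinesis and -0.080 for chromosome and transcription genes, and CCNA2 and BUB3 turned to -0.035 and -0.0018. Centring moved all genes up by 0.025, and put passenger genes at -0.051 and chromosome and transcription genes at -0.043. Chromosome and transcription genes were at -0.082 after cyclic loess. With single arrays left out, kinetochore genes ran from -0.034 to 0.041, passenger genes from -0.094 to -0.048, cytokinesis genes from -0.075 to 0.029, and chromosome and transcription genes from -0.084 to -0.052. TOP2A ran from -0.121 to 0.022, the highest without the first control array. The causes of these shifts were not tested. A fit with 1 array in a group assumes that it varies like the other group.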

Other observations

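The scaffold of the chromosomal passenger complex, INCENP, was not on the main list. It had log2 intensities of 8.91 and 8.51 in the induced arrays, against 9.03 and 8.99 in the control arrays, a difference of -0.30 (SE 0.12, limma adjusted p = 0.492), with a low second induced array. The 1 other mitotic gene higher at an unadjusted p under 0.05 was SKA1, of the SKA complex at kinetochores, with 8.17 and 8.14 in the induced and 7.997 and 8.02 in the control arrays (difference 0.15, SE 0.057). DEPDC1 and CKAP2L differed by -0.15 (SE 0.044) and -0.13 (SE 0.042). The cohesion factor CDCA5 (sororin) differed by -0.10 (SE 0.035) and CDKN3, a phosphatase of CDK2, by -0.11 (SE 0.033). These genes were chosen after their values were seen.

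A probe set annotated to both SLC35F6 and CENPA stood outside the list. It had 10.81 and 10.83 in the induced arrays, against 10.95 and 10.87 in the control arrays, a difference of -0.09 (SE 0.043) beside -0.15 for the probe set of CENPA alone.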
